A study of Caenorhabditis elegans with 2 samples.

Results

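SR proteins and Sm proteins are core parts of the machinery that removes introns from messenger RNA. The genes described here are the 8 SR protein genes of Caenorhabditis elegans, rsp-1 to rsp-8, and the Sm protein genes snr-1 and snr-3, 10 of 19985 annotated protein-coding genes. The set was chosen from the peaks of the D1046.2 protein in these data: the SR family was taken whole, and snr-1 and snr-3 were the Sm genes with a peak in the authors' conservative list. A gene counted as having a peak where the summit lay within 1000 bp of any of its annotated 5' ends, so the count of genes with peaks describes the choice and was not tested.

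The study mapped the genome-wide binding of D1046.2 by chromatin immunoprecipitation and sequencing (ChIP-seq) in 1 group with 2 biological replicates. Both came from strain OP397, in which the integrated transgene wgIs397 carries D1046.2 joined to the TY1, EGFP and 3xFLAG tags, together with a wild-type unc-119(+) copy, in the unc-119(tm4063) mutant. Whole L4 larvae were collected at 50 hours after cultures had been synchronised as starved L1 larvae following bleaching, chromatin was sheared by sonication, and tagged protein was precipitated with an antibody to GFP. The measured protein is therefore the tagged transgene product, every tissue of the animal contributes to 1 average, and no untagged or other-stage group was analysed here.

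An SR protein joins RNA recognition motifs to a tail rich in arginine and serine. SR proteins bind exons, help the splicing machinery to recognise the neighbouring splice sites, influence which sites are used, and are regulated by phosphorylation of the tail. Sm proteins form the ring that holds the small nuclear RNAs of the spliceosome. In worms many transcripts also receive a spliced leader at their 5' end, so an annotated 5' end can be a trans-splice site that lies downstream of the place where transcription starts.

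The DNA under the strongest peaks at these genes is shown first, because the peaks shared long stretches of letters. The sequences are from the ce11 build (WBcel235, RefSeq), are written 5' to 3', and overlapped no annotated transcript. The rsp-6 peak is chrIV:7791288-7791511 on the minus strand, which is the strand of the gene. The peak between rsp-5 and snr-3 is chrII:6489907-6490077 on the plus strand, the strand of rsp-5. The snr-1 peak is chrIV:17087525-17087820 on the plus strand, the strand of the gene. In the rsp-6 sequence the first run of capitals is a stretch that the rsp-5/snr-3 peak also held, there on the other strand, and the second run is a stretch that the snr-1 peak also held.
rsp-6: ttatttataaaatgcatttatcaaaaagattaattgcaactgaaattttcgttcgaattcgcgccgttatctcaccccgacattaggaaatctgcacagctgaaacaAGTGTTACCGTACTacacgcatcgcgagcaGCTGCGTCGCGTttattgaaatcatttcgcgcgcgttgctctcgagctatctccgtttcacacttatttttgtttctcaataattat
rsp-5/snr-3: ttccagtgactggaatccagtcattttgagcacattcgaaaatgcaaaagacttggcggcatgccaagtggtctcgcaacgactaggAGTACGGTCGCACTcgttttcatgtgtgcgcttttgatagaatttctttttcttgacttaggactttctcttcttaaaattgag
snr-1: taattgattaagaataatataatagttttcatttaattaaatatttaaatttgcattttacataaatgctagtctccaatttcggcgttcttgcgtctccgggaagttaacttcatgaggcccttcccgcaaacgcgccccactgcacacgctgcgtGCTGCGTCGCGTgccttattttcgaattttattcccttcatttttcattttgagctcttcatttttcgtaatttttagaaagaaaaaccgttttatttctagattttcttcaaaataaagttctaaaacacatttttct

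The capitals in the rsp-6 and rsp-5/snr-3 sequences spell the 14 letters AGTGNNACCGTACT on the minus strand of both chromosomes, where N is any base. It was the longest stretch that both peaks held when up to 2 letters were allowed to differ. Its centre was 2.5 bp from the rsp-6 summit and 0.5 bp from the rsp-5/snr-3 summit. The capitals shared by rsp-6 and snr-1 spell GCTGCGTCGCGT, the longest word of exact identity between those peaks, at 26.5 bp and 14.5 bp from the respective summits. Both words were read from these peaks after their signals were known, so the counts given for them later are descriptions.

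D1046.2 peaks were found at 6 of the 10 genes, and the signals spanned a wide range. By family, 4 of the 8 SR genes (rsp-3, rsp-5, rsp-6 and rsp-8) and both Sm genes had one. These were 5 separate peaks, since rsp-5 and snr-3 share theirs. Over all protein-coding genes the share with such a peak was 4.67% (934 of 19985). Of the 16136 genes with any candidate region in that window, it was 5.79%. Because the peaks entered the choice of genes, nothing is read from the difference. The peak signal is the authors' deposited value, whose scale no source used here gives, and signals were set side by side only within a list.

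The conservative list, which combines both replicates, held 1546 peaks, whose signals had a median of 95.5 and reached 3151. The lists of replicate 1 and replicate 2 alone held 619 and 463 peaks. These files hold peaks and no read counts, so the sequencing depth is unknown and no counting interval can be given. Over the 1530 conservative peaks that were matched in both replicates, the median log2 ratio of replicate 1 to replicate 2 was 0.08, and the 5th to 95th percentiles ran from -0.62 to 0.73. Nothing in the labels says whether the biological replicates were grown or processed on separate days.

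The rsp-6 gene encodes a short SR protein of the SRp20 type and carried the strongest of these peaks. The gene (WBGene00004703) lies on chromosome IV at 7789847 to 7791229, minus strand. Its pooled signal was 637, rank 24 of 1546 conservative peaks and 6.67 times the list's median. Replicate 1 gave 376 and replicate 2 gave 244. Both values were near the top of their own lists, at ranks 21 and 26, and their log2 ratio of 0.62 lay inside the range that most peaks showed. The summit was 166 bp upstream of the annotated 5' end, between genes, and the summits of the separate replicates fell within 5 bp of it. The same summit also lay 475 bp downstream of an annotated 5' end of its neighbour C33H5.13, on the same strand. By the rule used here the peak therefore counts for C33H5.13 too. The summit was 868 bp from the 5' end of that gene's record and 309 bp past its 3' end.

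The gene rsp-5 encodes an SR protein related to SC35 (human SRSF2), and snr-3 encodes the Sm protein SmD1. They are divergent neighbours on chromosome II: snr-3 (WBGene00004916) runs from 6488830 to 6489761 on the minus strand and rsp-5 (WBGene00004702) from 6490165 to 6491340 on the plus strand, with 404 bp between their outermost 5' ends. Their shared peak had a pooled signal of 400.0, rank 36 of 1546. Replicate 1 gave 195 and replicate 2 gave 201, a spread of 4.10 (SD, n = 2) and the closest agreement between replicates among the 5 peaks on the log2 scale, at -0.04. The summit was 165 bp upstream of rsp-5 and 239 bp upstream of snr-3, so the position does not assign the peak to either gene. Among 917 divergent pairs of neighbouring genes whose 5' ends were at most 500 bp apart, 47 (5.13%) had a conservative summit between them, with a median signal of 131, and the snr-3/rsp-5 peak ranked 9 by signal.

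The gene snr-1 (WBGene00004914, chromosome IV, 17088049 to 17088946, plus strand) encodes SmD3, another protein of the Sm ring. Its pooled signal was 129, rank 357 of 1546. Replicate 1 gave 85.4 and replicate 2 gave 39.2, and the peak passed the threshold in the list of replicate 1 (rank 203) but not in that of replicate 2. The log2 ratio of 1.12 lay above the 95th percentile of all matched peaks, so this signal rests more on replicate 1 than most do. The summit was 376 bp upstream of snr-1 and 235 bp upstream of the divergent gene snx-13, a sorting nexin, and here too the nearer gene is not the Sm gene.

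The remaining SR peaks were weaker than the list's median and lay inside the genes. The gene rsp-3 (WBGene00004700; chromosome III, 12686182 to 12687922, minus strand) encodes the worm counterpart of SF2/ASF (human SRSF1). Its pooled signal was 91.1, rank 898, with 44.3 in replicate 1 and 55.4 in replicate 2. The summit fell 283 bp downstream of a 5' end, in a coding exon of rsp-3, and the summits of the separate replicates were 79 bp to one side and 51 bp to the other. It was also 685 bp upstream of the divergent gene spin-4. The 101 bp round it were 65.3% G and C, against a median of 49.5% over conservative peaks. At the 10 genes, regions in coding exons but outside the conservative list ran from 38.6% to 64.4%. Whether base composition has a part in the rsp-3 signal was not tested.

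The gene rsp-8 (WBGene00004705; chromosome III, 11826418 to 11830974, plus strand) encodes a protein related to the splicing regulator Tra2. Its pooled signal was 79.4, rank 1305, with 48.1 in replicate 1 and 41.0 in replicate 2. The summit was in the 3' UTR, 194 bp from the 3' end of the gene. It was placed at rsp-8 only through an internal annotated 5' end, 825 bp away, and was 4362 bp from the 5' end of the gene record. For rsp-3 and rsp-8 alike, neither replicate's own thresholded list held the peak.

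**Figure D1:**
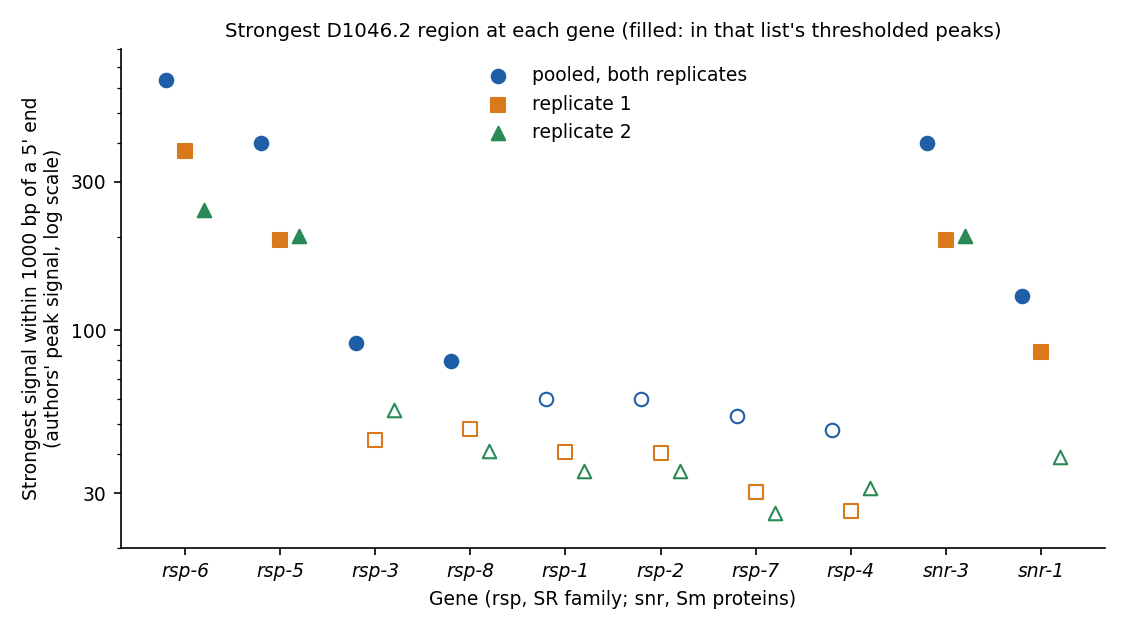
Strongest ranked region within 1000 bp of a 5' end of each gene (horizontal axis) by authors' peak signal (vertical axis, log scale), pooled and in each of 2 replicates. Filled symbols are regions in that list's thresholded peaks. Only rsp-6, rsp-5 and snr-3 are filled in all lists, at pooled signals of 637 and 400.0, and the last 2 genes named share 1 peak.

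The plot of signals by gene shows 3 levels. The peaks at rsp-6 and rsp-5/snr-3 passed the threshold in both replicates, the snr-1 peak passed in replicate 1, and those at rsp-3 and rsp-8 passed only when the replicates were combined. By count, the list of replicate 1 held peaks at 4 of the 10 genes (2.33% of all protein-coding genes) and that of replicate 2 at 3 (1.66%). The optimal list, which held 1641 peaks, named the same 6 genes as the conservative list (4.97% of all).

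The SR genes without a peak still had candidate regions in the ranked list, which keeps regions below the threshold. The strongest at rsp-1 and rsp-2 had a pooled signal of 60.2, in a coding exon of rsp-2, and was the same region for both. These genes encode the SR proteins of the SRp75 and SRp40 types. The strongest at rsp-7, which encodes an SRp54-related protein, had 53.1 and lay 218 bp upstream of the gene. The strongest at rsp-4, another relative of SC35, had 47.7 and lay in a coding exon of its neighbour ndx-6. The strongest value in each replicate was taken from its own ranked list and need not lie in the same region. In replicate 1 these values were 40.5 for rsp-1, 40.3 for rsp-2, 30.2 for rsp-7 and 26.2 for rsp-4. In replicate 2 they were 35.2, 35.2, 25.8 and 31.0, in the same order. The region of 60.2 at rsp-1 and rsp-2 itself had 22.1 in replicate 1 and 35.2 in replicate 2.

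The pooled values of all 4 genes were above the median of 44.0 for the strongest region at 16136 genes that had any. On that scale rsp-1 and rsp-2 were at the 80.1 percentile, rsp-7 at the 69.4 percentile and rsp-4 at the 58.3 percentile. The genes with peaks were at 93.7 (rsp-8) to 99.8 (rsp-6). In order of pooled signal, rsp-4, rsp-7, rsp-1 and rsp-2, rsp-8, rsp-3 and snr-1 followed each other in small steps from 47.7 to 129, and the next step, to rsp-5 and snr-3 at 400.0, was the largest.

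**Figure D2:**
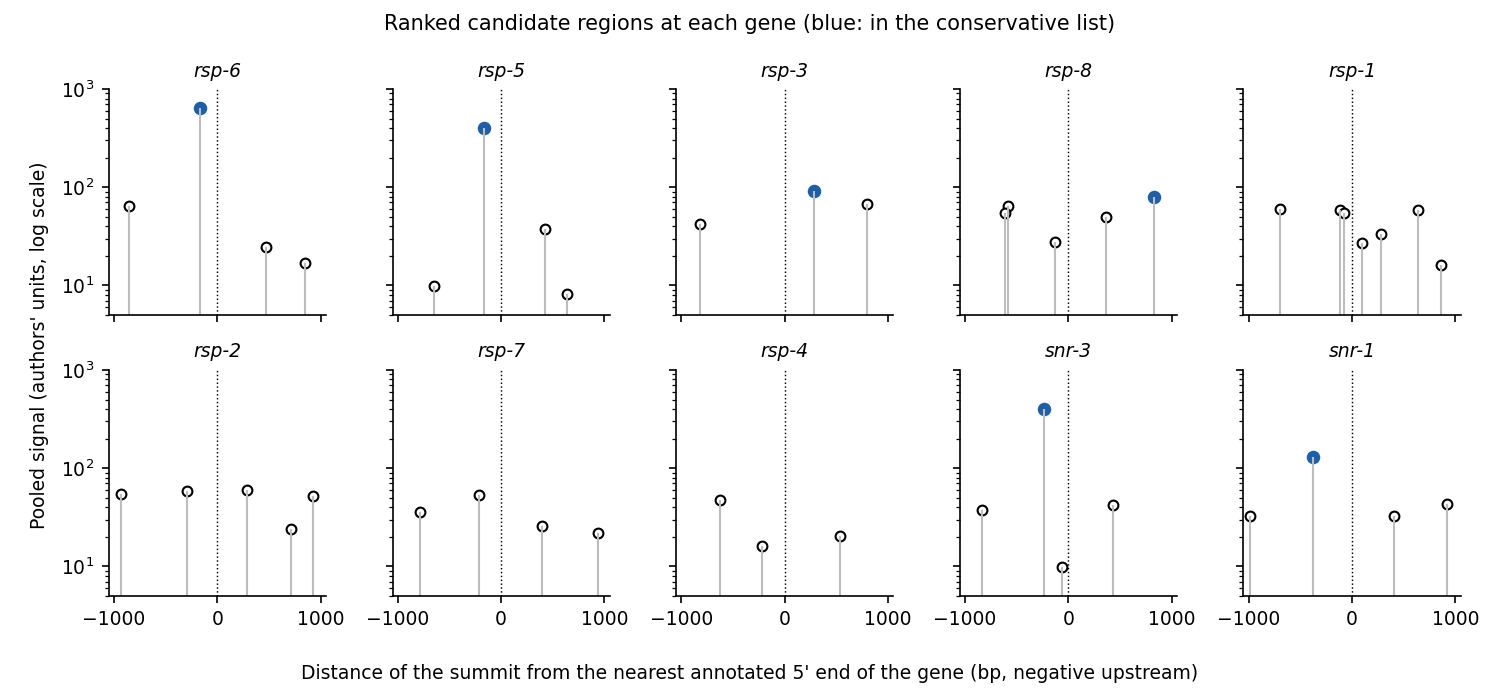
Ranked candidate regions at each gene, by distance of the summit from the nearest annotated 5' end (horizontal axis, bp, negative upstream) and pooled signal (vertical axis, authors' units, log scale). Filled blue points are in the conservative list and open points are not. The tallest points stand upstream at rsp-6, rsp-5, snr-3 and snr-1, whereas the blue points of rsp-3 and rsp-8 are at 283 and 825 bp downstream.

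The plot of candidate regions shows 37 regions at the 10 genes, of which 5 were in the conservative list and 32 were not. Signals of those outside the list ran from 8.18 to 67.5, with a median of 36.7. The threshold is on the irreproducible discovery rate (IDR), which measures how well a peak's rank recurs between replicates, and the lowest -log10 IDR in the conservative list was 2.00. The member just inside was rsp-8, at 2.39, followed by snr-1 at 2.64 and rsp-3 at 2.66. The regions just outside were a second one at rsp-3, in which the -log10 IDR was 1.86 and the signal 67.5, and the upstream one at rsp-6, 1.52 and 64.6. The rsp-6 and rsp-5/snr-3 peaks, at 4.78 and 4.50, were far from the threshold.

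A second pair of members, both of the SR family, has the same divergent arrangement as snr-3 and rsp-5. The genes rsp-2 (WBGene00004699; chromosome II, 11451441 to 11452955, minus strand) and rsp-1 (WBGene00004698; 11453362 to 11455864, plus strand) diverge from 5' ends 407 bp apart. A ranked region lay between them with a pooled signal of 58.5 and a -log10 IDR of 1.18, and with 40.3 in replicate 1 and 25.2 in replicate 2. Regions inside the genes had similar pooled signals, at 60.2 in rsp-2 and 58.5 in rsp-1, so by pooled signal no region stood out in front of the genes. Their -log10 IDR was lower than that of the region between the genes, at 0.91 in rsp-2 and 0.31 in rsp-1. The region in rsp-1 had no match in replicate 2.

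**Figure D3:**
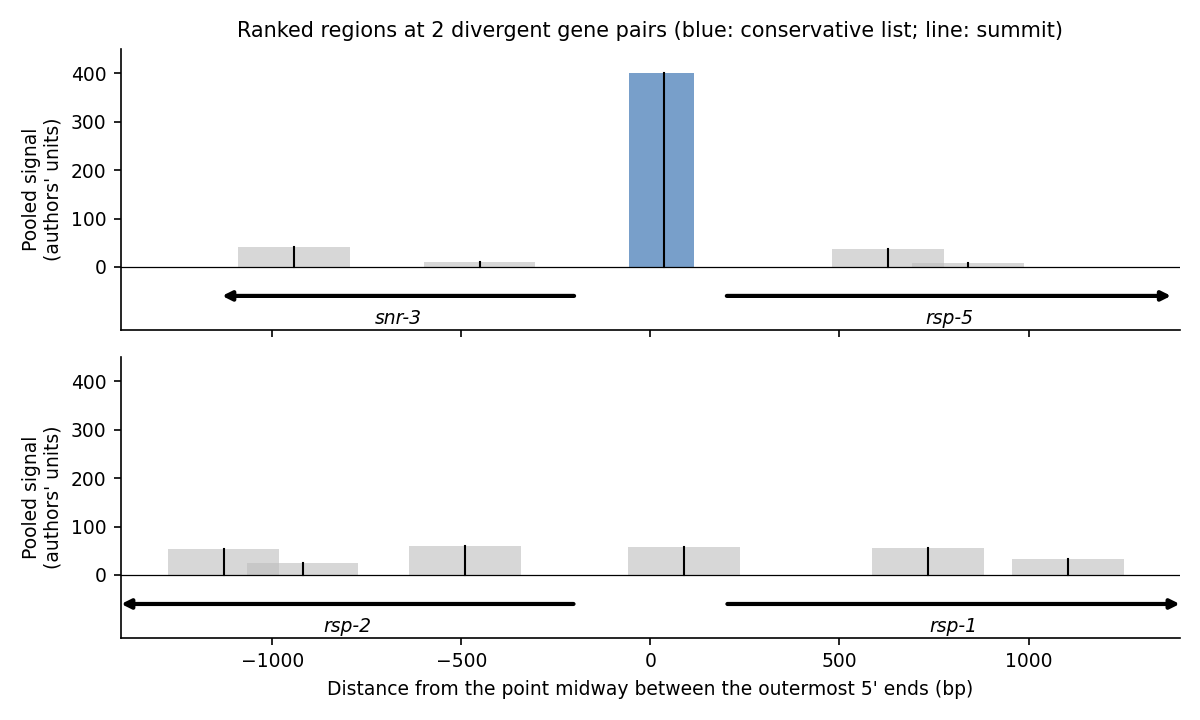
Ranked regions round the divergent pairs snr-3/rsp-5 and rsp-2/rsp-1, by distance from the point midway between the outermost 5' ends (horizontal axis, bp) and pooled signal (vertical axis, authors' units). Bars span each region, black lines are summits, arrows are genes, cut at the edge of the plot where longer. A single bar of 400.0 stands between snr-3 and rsp-5, and the bars round rsp-2 and rsp-1 do not exceed 60.2.

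The 101 bp round the summit between rsp-2 and rsp-1, chrII:11453198-11453298 on the plus strand, are shown because they hold 9 letters of the word that rsp-6 and snr-1 share, in capitals.
rsp-2/rsp-1: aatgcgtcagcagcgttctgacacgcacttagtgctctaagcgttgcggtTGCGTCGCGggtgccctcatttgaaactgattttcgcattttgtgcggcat
These 9 letters, TGCGTCGCG, were in 12 of 1546 conservative windows of 301 bp (0.776%), in 154 of 105375 other ranked regions (0.146%) and in 39 of 19973 promoters of 300 bp (0.195%), on either strand. The windows of rsp-6 and snr-1 are among the 12 by construction. The whole word GCTGCGTCGCGT was in 2 of the 1546 windows, those of rsp-6 and snr-1, and in 0 of the other regions, and these were its only 2 matches in the genome.

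The word shared by rsp-6 and rsp-5/snr-3 recurred at the top of the list. Its 14 letters were in 10 of 1546 windows, and all 10 were among the 50 strongest peaks, or 8 of 48 when the rsp-6 and rsp-5/snr-3 peaks, from which the word was read, are left out. The first 12 letters, AGTGNNACCGTA, were in 35 windows (2.26%). Of these, 28 were among the 50 strongest peaks, or 26 of 48 without those peaks. The word was in 4 of the 150 peaks at ranks 51 to 200 and in 3 of 1346 from rank 201 on. It was in 40 of 105375 other ranked regions (0.0380%) and 35 of 19973 promoters (0.175%), both strands searched.

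The stretches of 34 bases that hold the 12 letters are shown for rsp-6, for rsp-5/snr-3 and for the 4 strongest peaks of the list, to compare the letters beside the word. Capitals mark the 12 letters, each line is on the strand that spells them, and the last 4 lines are named by the gene with the nearest 5' end.
rsp-6: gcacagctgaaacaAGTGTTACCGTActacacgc
rsp-5/snr-3: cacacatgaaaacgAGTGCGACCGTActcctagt
eel-1: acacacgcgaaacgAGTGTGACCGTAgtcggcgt
rpl-29: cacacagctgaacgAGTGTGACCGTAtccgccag
npp-3: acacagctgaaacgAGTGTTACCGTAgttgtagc
rpl-38: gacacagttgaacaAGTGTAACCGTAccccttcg
The genes rpl-29 and rpl-38 encode ribosomal proteins, npp-3 encodes a nuclear pore protein and eel-1 a ubiquitin ligase. The resemblance ran past the capitals. In all 35 windows the letters before the word were compared, and 30 had AAAC followed by any base directly before the word, those of rsp-6 and rsp-5/snr-3 among them. The rpl-29 and rpl-38 stretches had GAAC there instead. These letters too were read from the same windows, and their share at matches outside conservative peaks was not counted. The word lay within 50 bp of the summit in 34 of the 35 windows, at a median distance of 13.5 bp. The genome held 137 matches of the 12 letters, of which 34 were inside conservative peaks. The match is a description of letters, and no test of D1046.2 binding to them was made.

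**Figure D4:**
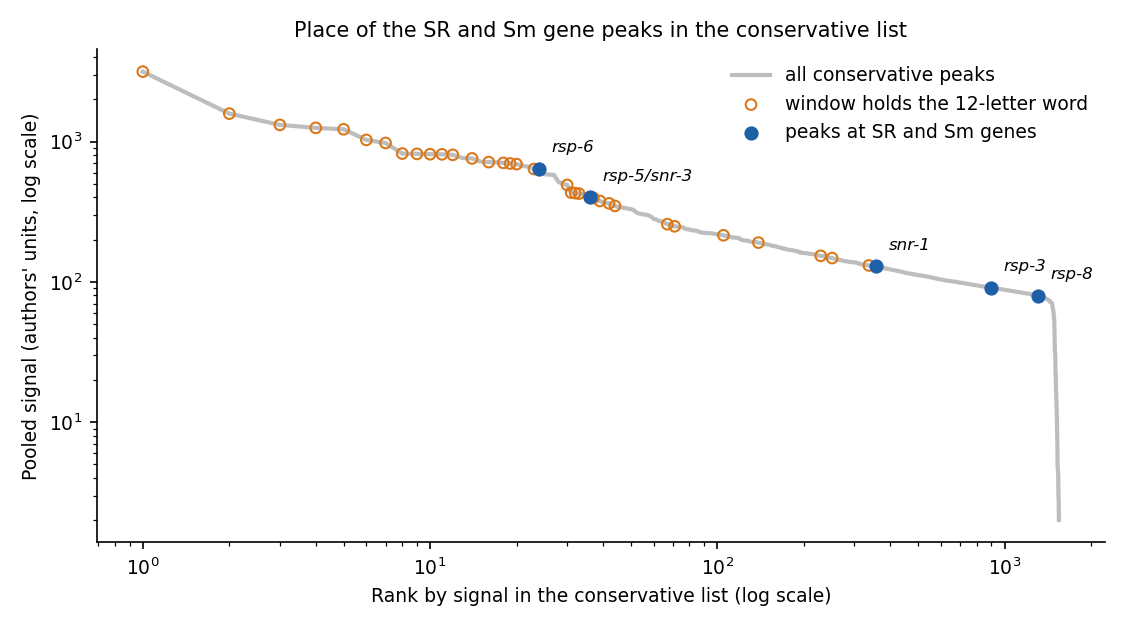
Pooled signal (vertical axis, authors' units, log scale) against rank (horizontal axis, log scale) for 1546 conservative peaks. Open circles are peaks whose window holds the 12-letter word, and filled points are the 5 peaks at SR and Sm genes. The circles crowd at the top ranks, where rsp-6 and rsp-5/snr-3 lie, and snr-1, rsp-3 and rsp-8 lie below all of them.

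The rank plot places rsp-6 and rsp-5/snr-3 among the peaks with the word, whereas the windows of snr-1, rsp-3 and rsp-8 did not hold it. Within 1000 bp of a 5' end, in or outside a peak, the word was found at rsp-5, rsp-6 and snr-3, which hold it by construction because it was read from their peaks. It was found at none of the other SR and Sm genes, at 0 of 62 other splicing genes and at 115 of 19973 protein-coding genes (0.576%). Of 8 short motifs searched on both strands in the 101 bp round each summit, the rsp-6 and rsp-5/snr-3 windows held none. The printed rsp-6 peak does hold CGCGCC and GCGCGC, outside those 101 bp or across their edge. The snr-1 window held CGCGCC, which 7.63% of conservative and 2.17% of other windows held. The rsp-3 window held CACGTG (4.27% and 2.33%) and CGAACC (11.97% and 2.32%). Conservative windows had a median of 49.5% G and C, against 40.6% in a sample of 5269 other windows. Whether base composition has a part in the shares of these motifs or of the words above was not tested. The word GCGCGC was in 0 of the 5 windows, and so were the word GCGCCA, the word AGAGCG, the word CCGCCC and the repeat GAGAGA.

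**Figure D5:**
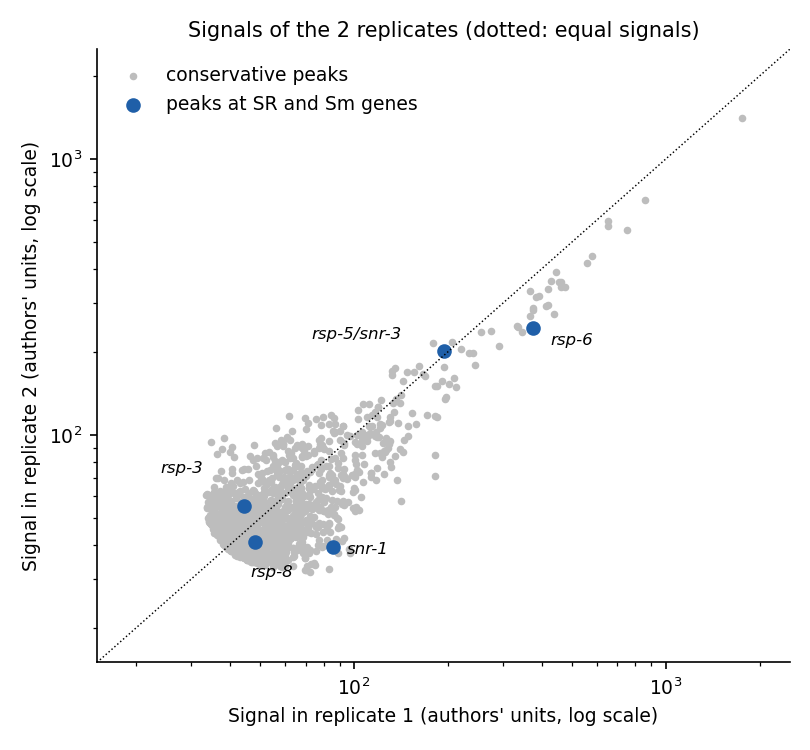
Signal in replicate 1 (horizontal axis) against replicate 2 (vertical axis), both in authors' units on log scales, for the conservative peaks found in both. Grey points are all such peaks, blue points those at SR and Sm genes, and the dotted line marks equal signals. The rsp-5/snr-3 point sits on the line, rsp-6 lies below it at 376 and 244, and snr-1 lies at the lower right edge of the cloud.

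The replicate plot shows snr-1 as the least even of the 5 peaks, at 85.4 against 39.2, while rsp-3 and rsp-8 lie in the dense part of the cloud. No noncoding gene lay within 1000 bp of any of the 5 summits (0 in each case), and the nearest tRNA gene was 37927 bp from the rsp-8 summit and farther from the others.

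Protein length and arginine-serine content overlapped between SR genes with and without a peak. The genes with a peak encode proteins of 179 (rsp-6), 208 (rsp-5), 258 (rsp-3) and 309 (rsp-8) residues. Those without one encode 196 (rsp-4), 281 (rsp-2), 312 (rsp-1) and 452 (rsp-7). Arginine-serine pairs in either order, the mark of the SR tail, ran from 6.47 to 21.2 per 100 residues in the former and from 7.96 to 18.4 in the latter, so the ranges overlapped. The highest were rsp-6 at 21.2 and rsp-5 at 19.7, and rsp-4, with no peak, followed at 18.4. Pairwise identity over the 28 SR pairs ran from 21.7% to 56.4% of the shorter protein, with a median of 39.9%. It was 46.9% for rsp-5 and rsp-6 and 54.4% for rsp-1 and rsp-2, and the repeated arginine and serine letters can add to each value. By the same measure, pairs of an SR and an Sm protein ran from 21.3% (rsp-4 and snr-1) to 32.5% (rsp-2 and snr-3). The lowest values among SR pairs were therefore no higher than those between the families.

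The rest of the Sm ring was without a conservative peak. The strongest regions had pooled signals of 97.6 at snr-4 (SmD2), 58.6 at snr-2, 51.5 at snr-6, 28.7 at snr-7 and 14.03 at snr-5, against 400.0 at snr-3 and 129 at snr-1. The snr-4 region, 405 bp upstream, was in the optimal list and in that of replicate 1, with 74.5 in replicate 1 and 30.2 in replicate 2. Like the peak of snr-1, it was stronger in replicate 1. The absence of snr-4 from the Sm genes counted here therefore turns on which combined list is used.

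Beyond these genes, 7 of 62 other splicing genes had a conservative peak by the same rule (11.3%, against 4.67% of all protein-coding genes). The lists behind that count were drawn up with results of these data known, and the share was not tested. In the list of spliceosomal helicases, 1 of 7 genes had a peak. It was mog-4, a DEAH-box helicase also needed for the switch from sperm to oocytes. Its pooled signal was 501 at rank 29, with 291 in replicate 1 and 210 in replicate 2. In the list of proteins of the small nuclear ribonucleoproteins and the 3' splice site, 3 of 22 had a peak. They were prp-19, a ubiquitin ligase of the spliceosome, at 232, and uaf-2, the small subunit of U2AF, at 96.3. The last was snrp-200, the helicase that unwinds the paired small nuclear RNAs, at 81.8. Although a helicase, snrp-200 was counted in this list and not among the 7. The prp-19 summit was 607 bp upstream and 68 bp from a 5' end of K10D2.5, and the gene emb-1 also shares that peak. The uaf-2 summit was 699 bp downstream of its 5' end, in a coding exon of the neighbour cyn-13 and 152 bp from the 5' end of cyn-13.

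Of the other lists, 1 of 8 LSm genes had a peak (lsm-3 at 85.6), as did 1 of 3 SR-related and SR kinase genes (rsr-1, related to SRm160, at 121) and 1 of 17 regulators of alternative splicing (hrpk-1, related to hnRNP K, at 123). The rsr-1 summit was 542 bp upstream of rsr-1 and nearer, at 190 bp, to a 5' end of sri-5. The lsm-3 summit was 39 bp upstream of lsm-3 and 626 bp from a 5' end of Y62E10A.13. The lsm-3 peak was in neither the optimal list nor the list of either replicate. The optimal list had peaks at 8 of the 62 genes. The kinase that phosphorylates SR tails, spk-1, and the large U2AF subunit, uaf-1, had none. Only mog-4 and prp-19 passed the threshold in both replicates. In signal, mog-4 thus lay between rsp-6 at 637 and rsp-5/snr-3 at 400.0, and the peaks at the other genes of these lists lay below both. The median of the strongest region was 53.9 over the 60 of these 62 genes that had any region and 69.8 over the SR family taken whole, beside 44.0 over the 16136 genes with any region. The lists were drawn up with these signals known, so nothing is read from the medians.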

How the data were processed

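Per the labels, 2 biological replicates of 1 strain were profiled by ChIP-seq on the ce11 build. The authors deposited 8 peak lists, a thresholded and a ranked one for each replicate and for 2 ways of combining them. The aligner, peak caller and threshold: not given in the sources used here. A control library was not analysed here. The signal of each peak is the deposited value of the authors, on an unstated scale. The deposited score is the scaled IDR score, of at least 830 in the thresholded lists. The ranked lists hold the deposited global IDR as -log10. Both combined ranked lists carry per-replicate columns. The one used here is that in which the first column recurred in the list of replicate 1 for 83.9% of values, against 25.0% in the other.

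Summits were placed against 5' ends of protein-coding transcripts in Ensembl release 115 (WBcel235), and sequences and proteins were read from RefSeq on the same build. No peak passed a chromosome end (0 over 6 chromosomes). Gene start and end were the same in RefSeq for 7 of the 10 genes. Replicate signals come from each replicate's ranked region that overlaps the peak. The placing of summits was tested on simulated data. Words were searched in windows of 301 bp. The members, the gene lists and the alternatives were chosen with earlier results of these data known. The genes named are the 10 members, the genes of the splicing lists with a conservative peak, the other Sm genes, and neighbours that share a peak. The genes eel-1, rpl-29, npp-3 and rpl-38, with spk-1 and uaf-1, were named after values were seen. Of 65 symbols in the splicing lists, 62 matched. No test was made, since there is 1 group and the peaks entered the choice. Python 3.11.15, numpy 2.4.6, pandas 2.3.3, Biopython 1.88 and matplotlib 3.10.9 were used. Alternatives were the other combined list, each replicate alone, other distances, any base of the peak, the stronger 50% of peaks, and gene-record 5' ends.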

Additional observations from a re-analysis of the deposited data

How the results depend on the processing

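The count of SR and Sm genes with a peak was 6 under the optimal list, a window of 2000 bp and any base of the peak. It was 5 within 500 bp and with gene-record 5' ends, where rsp-8 dropped out. It was 4 for a promoter from 500 bp upstream to 100 bp downstream and for the stronger 50% of peaks, where rsp-3 dropped out too. With 1 replicate left out it ran from 3 to 4: without replicate 1, rsp-3, rsp-8 and snr-1 dropped out, and without replicate 2, rsp-3 and rsp-8 did. The genes rsp-5, rsp-6 and snr-3 kept a peak under all of these settings. Over all protein-coding genes the count of 934 (4.67%) became 993 (4.97%) under the optimal list and 593 (2.97%) within 500 bp. It was 468 (2.34%) for the promoter, 1480 (7.41%) within 2000 bp and 551 (2.76%) for the stronger peaks. Any base of the peak gave 1029 (5.15%), and gene-record 5' ends gave 831 (4.16%). The count over all genes ran from 332 (1.66%) to 465 (2.33%) with 1 replicate left out. The settings of distance, 5' end, overlap and strength admit fewer or more summits by construction. The lists of replicate 1 and replicate 2 alone hold fewer peaks, 619 and 463, and why they are shorter was not tested. No value could be had for snr-1 in the list of replicate 2, or for rsp-3 and rsp-8 in the list of either replicate. Signals of a single replicate were below the pooled ones at all 5 peaks. No paired analysis was possible because the study has 1 group. Depth is unknown, so it cannot be said how far it limits the weak peaks.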
